A study of Mus musculus with 9 samples.

Results

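The 9 genes described here are Il7r and 8 genes that T cells use to find their way through lymphoid tissue or to stay quiescent: Foxo1, Ccr7, S1pr1, S1pr4, Cxcr4, Gpr183, Txnip and Tsc22d3. They were taken by symbol, as named in GENCODE M21, from 45321 genes with a quantified transcript, and all 9 were among the 14040 genes that passed the filter on low counts. Splenic CD4+ T cells of C57BL/6 mice, purified untouched, were kept for 1 h with DMSO, the vehicle, or with 12.5 µM Compound 10, described by the series as a chemical inhibitor of NFAT:AP-1. They were then left unstimulated or stimulated for 2 h with 10 nM PMA, a phorbol ester that activates protein kinase C, and 1 µM ionomycin, a calcium ionophore. The labels name no altered gene in any group, and every group carried the DMSO or the compound through the pretreatment. RNA sequencing gave 9 libraries: 2 unstimulated with vehicle, 2 unstimulated with compound 10, 2 stimulated with vehicle and 3 stimulated with compound 10. The purified population is total CD4+ T cells, which holds naive, memory and regulatory cells together, and PMA with ionomycin bypasses the T cell receptor.

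Naive T cells survive on interleukin 7, which binds a receptor made of the alpha chain encoded by Il7r and the common gamma chain, and signals through JAK1, JAK3 and STAT5. The transcription factor FOXO1, which is held out of the nucleus when PI3K and AKT are active, sustains Il7r and, with KLF2, the homing genes Ccr7 and S1pr1. CCR7 brings the cells into lymph nodes, S1PR1 lets them leave along a gradient of sphingosine 1-phosphate (S1P), and antigen receptor signals lower both programmes while the cells divide. NFAT and AP-1 are the transcription factors that calcium and protein kinase C signals bring together on the DNA of activated T cells.

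The libraries held between 10669821 and 21852830 estimated counts, and ribosomal RNA took 1.81% to 26.7% of them, with the highest shares in unstimulated vehicle replicate 2 (26.7%) and stimulated vehicle replicate 2 (14.0%). Whether replicates came from separate mice or cultures is not in the labels, so a p-value here sets a difference against the spread of these libraries alone, which may be technical. Cd4 stood between 77.2 and 166 CPM (counts scaled to library size with TMM factors) and Cd3e between 117 and 307 CPM, against 0 to 0.35 CPM for Cd8a. The summed level of 13 B cell markers, most of it Ighm, was 526 to 792 CPM at rest with vehicle and 568 to 683 CPM at rest with compound 10. After stimulation it was 438 to 714 CPM with vehicle and 676 to 921 CPM with the compound. Of the 10 tested, 0 passed an adjusted p of 0.05 with compound 10, with median log2 changes of -0.17 at rest and 0.41 after stimulation. An unchanged share of B cells was thus not shown, and 1 marker (Cd79b) was lower on stimulation with vehicle. The summed level of 9 natural killer cell markers was 18.2 to 23.3 CPM at rest with vehicle, 38.2 to 42.7 CPM at rest with compound 10, 31.9 to 47.6 CPM after stimulation with vehicle and 53.3 to 71.1 CPM after stimulation with the compound. Of 8 tested, 1 (Gzma) was higher with compound 10 at rest, where 4.44% of all genes were. After stimulation 4 were (Klrb1c, Gzma, Prf1 and Klrd1), beside 11.7% of all genes. No natural killer marker was at 0 in every library. The 15 CD4 T cell markers summed to 1647 to 1788, 2356 to 2614, 3612 to 4442 and 4147 to 4277 CPM in the same order of groups. With compound 10, 6 of 15 were higher at rest (4.44% of all genes were). After stimulation 6 were higher (11.7% of all genes were) and 2 lower (11.4% were). The part of these shifts in the results below was not tested.

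The start sites of 7 of the 9 genes are in the RefSeq promoter table (GRCm38.p6). The windows of 3 of them are shown: Il7r and Cxcr4, which had the largest log2 changes up and down among the 9 genes with compound 10 at rest, and Txnip, the only gene of the 7 whose window holds a FOXO core. In all, 7 motifs were searched on both strands. Each line gives the 250 bases before the start, 5′ to 3′ on the gene's own strand. Il7r lies at chr15:9529877-9530126 on the minus strand, Cxcr4 at chr1:128592300-128592549 on the minus strand and Txnip at chr3:96557707-96557956 on the plus strand.
Il7r: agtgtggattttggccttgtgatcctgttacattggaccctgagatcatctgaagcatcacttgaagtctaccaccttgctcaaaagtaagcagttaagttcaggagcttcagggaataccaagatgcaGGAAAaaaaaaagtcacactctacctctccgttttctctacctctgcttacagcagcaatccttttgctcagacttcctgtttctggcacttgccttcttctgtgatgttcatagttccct
Cxcr4: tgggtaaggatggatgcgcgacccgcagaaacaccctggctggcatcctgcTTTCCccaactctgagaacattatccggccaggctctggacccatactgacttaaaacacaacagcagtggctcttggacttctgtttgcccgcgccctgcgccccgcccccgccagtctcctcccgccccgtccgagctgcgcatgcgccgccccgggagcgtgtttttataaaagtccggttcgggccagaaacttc
Txnip: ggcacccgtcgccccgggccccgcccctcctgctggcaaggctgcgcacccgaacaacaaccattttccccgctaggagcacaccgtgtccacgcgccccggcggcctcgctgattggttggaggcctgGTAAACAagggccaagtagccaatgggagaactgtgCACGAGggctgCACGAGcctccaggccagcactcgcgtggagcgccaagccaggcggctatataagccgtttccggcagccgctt
Capitals in the Il7r window mark the NFAT core GGAAA, 121 bases before the start, and in the Cxcr4 window the same core on the opposite strand, 199 bases before it. In the Txnip window they mark the FOXO core GTAAACA, 121 bases before the start, and 2 copies of CACGAG, a component of the carbohydrate response element, at 85 and 74 bases. Of 32851 promoter windows of this length, 55.6% held GGAAA, 3.17% held GTAAACA and 5.37% held CACGAG. The other motifs were CACGTG (an E box, in 6.02% of all windows) and CACCC (a KLF core, 52%). AGAACA (a glucocorticoid receptor half-site, 16.1%) and TGANTCA (AP-1, 6.75%) were also searched. Left in lower case are 2 further GGAAA matches and 2 of CACCC in the Txnip window and 1 each of CACCC and AGAACA in the Cxcr4 window. CACGTG and TGANTCA had no match in these 3 windows. A match is a run of letters and not a measured binding site. The Il7r window overlaps an exon of a noncoding Il7r transcript, and the Txnip window lies within the antisense gene Gm15441.

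Compound 10 raised Il7r at rest and after stimulation, and in stimulated cells S1pr1, Tsc22d3 and Txnip, which stimulation lowered, stood higher with the compound than with vehicle. In stimulated cells, 6 of the 9 genes differed between compound 10 and vehicle at an adjusted p under 0.05 (edgeR's quasi-likelihood test, Benjamini-Hochberg adjustment over 14040 genes), against 23% of all genes tested: Il7r, S1pr1, Tsc22d3, Txnip and S1pr4 were higher and Foxo1 was lower. At rest, 4 of the 9 differed, against 7.34% of all genes: Il7r and S1pr4 were higher (4.44% of all genes were) and Ccr7 and Cxcr4 lower (2.9% were). Stimulation with vehicle changed 8 of the 9, against 28.1% of all genes: S1pr1, S1pr4, Txnip, Tsc22d3, Ccr7 and Il7r fell, and Gpr183 and Foxo1 rose. In cells pretreated with compound 10, here called stimulation under compound 10, 5 of the 9 changed, against 21.8% of all genes. S1pr4, Txnip, S1pr1 and Tsc22d3 fell and Gpr183 rose. The libraries of the compared groups did not overlap for 8 of the 9 genes on stimulation with vehicle (63.3% of all genes), 4 with compound 10 at rest (55.4%), 8 with compound 10 after stimulation (47.4%) and 6 on stimulation under the compound (49.5%). Without the 2 libraries richest in ribosomal RNA, compound 10 raised Il7r by 2.82 (adjusted p = 0.00911) and 3.23 (0.00208) on the log2 scale at rest and after stimulation. Calls lost without them were those of Il7r (adjusted p = 0.234) and Foxo1 (0.154) on stimulation with vehicle, S1pr4 (0.0792) and Cxcr4 (0.116) with compound 10 at rest, and Txnip (0.15) with compound 10 after stimulation. Matching identifiers with their version keeps 63964 of 109617 transcripts and leaves out Il7r, S1pr4 and Gpr183; it left S1pr1 alone called with compound 10 after stimulation and 0 genes at rest. The comparisons share libraries, so each is given on its own. The plot of CPM by library shows all 9 genes.

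**Figure D1:**
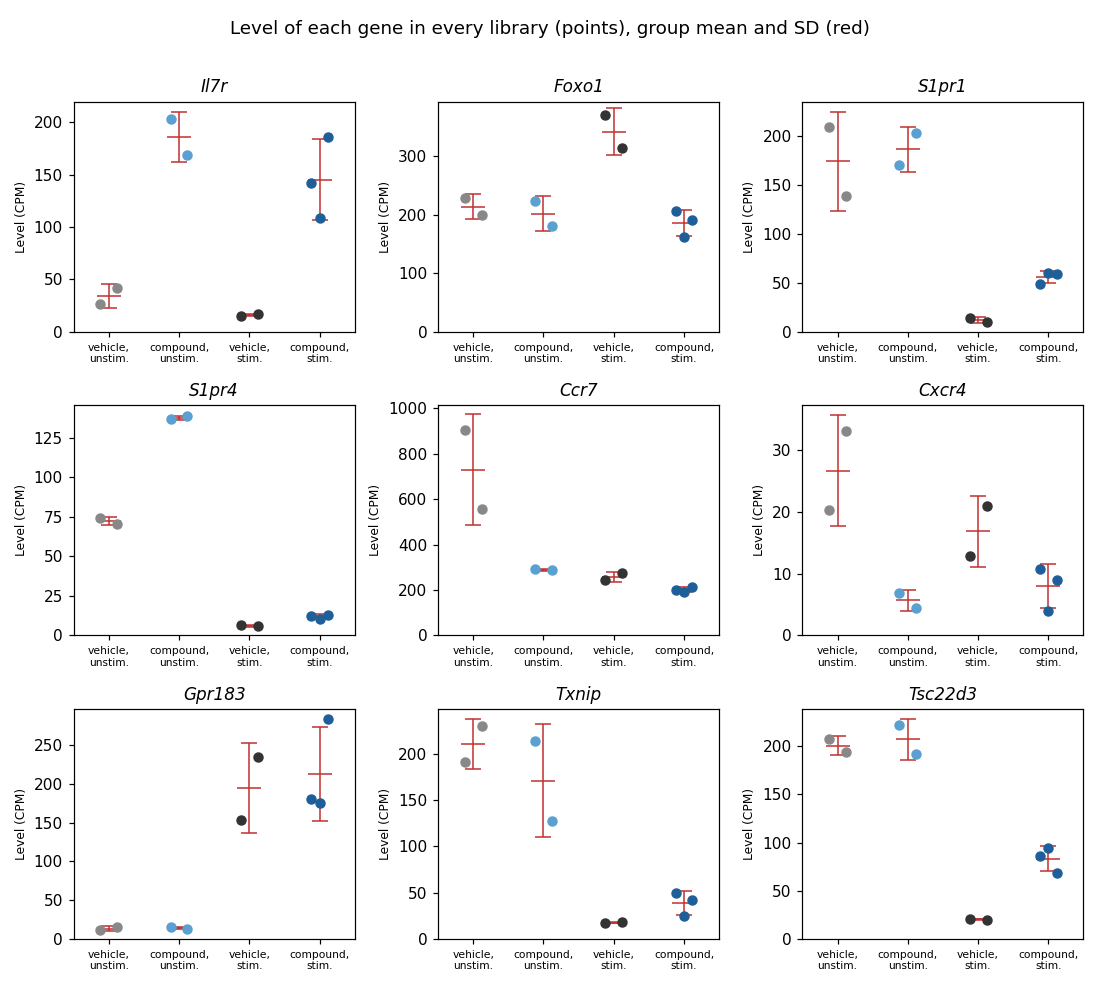
Level of each of the 9 genes in every library, in CPM on linear axes that start at 0. Points are libraries and red marks the mean ± SD of each group. Il7r averaged 145 CPM or more in both compound 10 groups and 34.3 CPM or less in both vehicle groups, whereas Gpr183 followed stimulation.

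Il7r, on chromosome 15 (9505788 to 9530176, minus strand, GRCm38), encodes the alpha chain of the interleukin 7 receptor. It stood at 26.3 and 42.2 CPM in unstimulated vehicle libraries and at 203 and 169 CPM in unstimulated compound 10 libraries. In stimulated cells it was 15.4 and 16.6 CPM with vehicle and 142, 108 and 186 CPM with compound 10. The lowest compound 10 library was thus above every vehicle library, while the compound 10 groups at rest and after stimulation overlapped. Compound 10 raised Il7r by a log2 change of 2.44 (SE 0.28, 95% interval 1.82 to 3.05, adjusted p = 0.000666) at rest, a 5.41-fold difference. After stimulation the log2 change was 3.18 (SE 0.28, 95% interval 2.56 to 3.80, adjusted p = 3.73e-05), a 9.06-fold difference. In bulk RNA, more cells of a kind that expresses Il7r and more Il7r RNA per cell cannot be told apart.

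Stimulation lowered Il7r to 46.8% of its resting level with vehicle (log2 change -1.10, SE 0.28, adjusted p = 0.0114). That call was lost without unstimulated vehicle replicate 2 (adjusted p = 0.135), without stimulated vehicle replicate 1 (0.0752) or 2 (0.0574). With compound 10, the level after stimulation was 78.2% of that at rest, and the log2 change of -0.35 (95% interval -0.88 to 0.17, adjusted p = 0.345) did not pass. The compound's effect on Il7r in stimulated cells was larger than at rest by 0.74 on the log2 scale, with a 95% interval of -0.06 to 1.55 and an adjusted p of 0.392, so a difference between the states was not shown. Only 1 transcript of Il7r was quantified. Per unit of transcript length, Il7r was 10.9 TPM on average in unstimulated vehicle cells, below 7 of the other 8 genes, and 61.8 TPM with compound 10.

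Foxo1 (chromosome 3, 52268336 to 52353221, plus strand) encodes the forkhead factor that acts upstream of Il7r, and it moved the other way in stimulated cells. At rest it was 229 and 199 CPM with vehicle and 223 and 180.5 CPM with compound 10. After stimulation the levels were 371 and 314 CPM with vehicle and 207, 161 and 191 CPM with the compound. Both stimulated vehicle libraries were above the other 7 libraries, which overlapped among themselves. With vehicle, stimulation raised Foxo1 by 0.68 on the log2 scale (SE 0.21, adjusted p = 0.0274), a call lost without unstimulated vehicle replicate 1 (adjusted p = 0.0675), replicate 2 (0.163) or stimulated vehicle replicate 1 (0.147), and on TPM (0.405 and 0.408). In stimulated cells Foxo1 was 1.84-fold lower with compound 10 than with vehicle (log2 change -0.88, SE 0.18, adjusted p = 0.0049). That difference was at 0.0706 and 0.0689 when TPM were tested with pseudocounts of 1 and 0.1. At rest the compound's log2 change was -0.08 (95% interval -0.53 to 0.36), and under compound 10 stimulation's was -0.12 (95% interval -0.52 to 0.29).
The gene overlaps the antisense gene Gm20402, which was at most 4.02 CPM, and Gm38034, which was at most 5.62 CPM. The library kit does not mark strand, so reads from antisense partners cannot be told apart.

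S1pr1 (chromosome 3, 115710433 to 115715072, minus strand) encodes the receptor through which T cells sense S1P and leave lymphoid tissue. It was 210.2 and 139 CPM in unstimulated vehicle libraries and 170.4 and 203 CPM in unstimulated compound 10 libraries, and these groups overlapped. After stimulation it was 14.3 and 10.4 CPM with vehicle but 49.0, 59.7 and 59.6 CPM with compound 10, and these groups did not overlap. Stimulation therefore left 7.07% of the resting level with vehicle and 30.1% with compound 10. The log2 changes on stimulation were -3.82 (SE 0.26, adjusted p = 1.49e-06) and -1.73 (SE 0.21, adjusted p = 0.000123). In stimulated cells compound 10 raised S1pr1 4.54-fold (log2 change 2.18, SE 0.24, adjusted p = 0.000112), and at rest its log2 change was 0.10 (95% interval -0.41 to 0.60, adjusted p = 0.856). The difference between these effects was 2.09 (SE 0.33, 95% interval 1.38 to 2.80, adjusted p = 0.0139), a test that 1.03% of all genes passed (0.42% with a higher value). It was lost without unstimulated compound 10 replicate 1 (adjusted p = 0.0853), stimulated vehicle replicate 2 (0.0577) or the 2 libraries richest in ribosomal RNA (0.0537), and on TPM (0.397 and 0.366).

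S1pr4 (chromosome 10, 81497747 to 81500132, minus strand) encodes another S1P receptor of lymphocytes. At rest it was 74.3 and 70.6 CPM with vehicle and 137 and 138 CPM with compound 10. Stimulated cells had 6.28 and 5.72 CPM with vehicle and 12.6, 10.6 and 13.2 CPM with the compound. No groups overlapped, and the compound 10 libraries were above vehicle in both states. Stimulation left 8.28% of the resting level with vehicle (log2 change -3.60, SE 0.19, adjusted p = 3.53e-07) and 8.82% with compound 10 (log2 change -3.51, SE 0.16, adjusted p = 7.63e-08). Compound 10 raised S1pr4 1.90-fold at rest (log2 change 0.92, SE 0.17, adjusted p = 0.00904) and 2.02-fold after stimulation (log2 change 1.02, SE 0.18, adjusted p = 0.0015). The effect in stimulated cells minus that at rest was 0.09, with a 95% interval of -0.43 to 0.61. The resting call was lost when any 1 of the 4 unstimulated libraries was left out (adjusted p from 0.0639 to 0.0783), and on TPM both calls were lost (adjusted p from 0.0667 to 0.17).

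S1pr1 and S1pr4 thus both fell more than 10-fold on stimulation with vehicle, and with compound 10 the fall of S1pr1 was smaller whereas that of S1pr4 was not shown to differ. The plot of stimulation effects sets them beside the other genes.

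**Figure D2:**
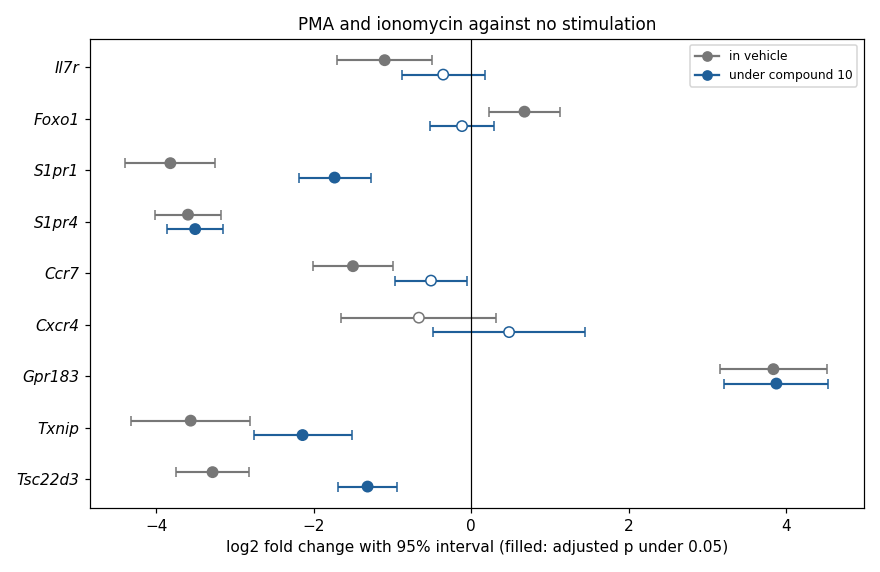
Log2 change on stimulation of each gene with vehicle and with compound 10, with 95% intervals; filled points have an adjusted p under 0.05. S1pr1 and Tsc22d3 fell less with compound 10 (-1.73 and -1.32) than with vehicle (-3.82 and -3.28), Txnip had -2.14 and -3.56 (adjusted p of the difference 0.147), and the points of S1pr4 (-3.51 and -3.60) and Gpr183 (3.88 and 3.84) lie close together.

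Ccr7 (chromosome 11, 99144196 to 99155077, minus strand) encodes the chemokine receptor that guides T cells into the T zone of lymph nodes. It was 904 and 557 CPM in unstimulated vehicle and 291 and 286 CPM in unstimulated compound 10 libraries. After stimulation it was 243 and 273 CPM with vehicle and 201, 193 and 215 CPM with compound 10. Unstimulated vehicle stood highest, with the widest gap between its libraries, and no groups overlapped. Compound 10 lowered Ccr7 at rest 2.53-fold (log2 change -1.34, SE 0.23, adjusted p = 0.00646). That call was lost without unstimulated vehicle replicate 1 (log2 change -0.95, adjusted p = 0.0577) or without either unstimulated compound 10 library (0.0718 and 0.0632), and on TPM (0.119 and 0.142). Stimulation with vehicle left 35.3% of the resting level (log2 change -1.50, SE 0.24, adjusted p = 0.000582). In stimulated cells the log2 change with compound 10 was -0.35 (95% interval -0.80 to 0.11, adjusted p = 0.274), and stimulation under the compound gave -0.51 (95% interval -0.96 to -0.06, adjusted p = 0.104). The effect of compound 10 after stimulation minus that at rest was 0.99 (SE 0.31), with an adjusted p of 0.159, and of 0.0478 with DESeq2. All 7 libraries that had received compound 10, stimulation or both were thus below both unstimulated vehicle libraries.

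Cxcr4 (chromosome 1, 128588199 to 128592293, minus strand) encodes the receptor for CXCL12, which holds cells in bone marrow and other CXCL12-rich niches. It was 20.3 and 33.0 CPM in unstimulated vehicle against 6.82 and 4.49 CPM in unstimulated compound 10 libraries, with no overlap. In stimulated cells it was 12.8 and 20.9 CPM with vehicle and 10.8, 3.97 and 8.99 CPM with compound 10. All 5 compound 10 libraries were below all 4 vehicle libraries. At rest Cxcr4 was 4.72-fold lower with compound 10 (log2 change -2.24, SE 0.47, adjusted p = 0.0217), a call lost without unstimulated vehicle replicate 2 (adjusted p = 0.114) or either compound 10 library (0.0952 and 0.143), and on log2(TPM + 0.1) (0.0626). In stimulated cells the log2 change was -1.09 (SE 0.41, 95% interval -2.01 to -0.18, adjusted p = 0.0842), which did not pass; DESeq2 gave 0.0205. Stimulation did not change Cxcr4 detectably, with log2 changes of -0.66 (95% interval -1.65 to 0.32) with vehicle and 0.48 (95% interval -0.49 to 1.45) with compound 10.

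Gpr183 (chromosome 14, 121952551 to 121965195, minus strand) encodes EBI2, which follows oxysterols to the edge of the follicle. It rose from 11.5 and 15.7 CPM to 154 and 235 CPM on stimulation with vehicle. With compound 10 it rose from 15.5 and 13.6 CPM to 181, 176 and 283 CPM. The stimulated groups overlapped, as did the unstimulated ones, while every stimulated library was above every unstimulated one. The log2 changes on stimulation were 3.84 (SE 0.31, adjusted p = 5.23e-06) and 3.88 (SE 0.30, adjusted p = 5.39e-06). Compound 10 gave log2 changes of 0.09 (95% interval -0.54 to 0.73) at rest and 0.13 (95% interval -0.42 to 0.68) after stimulation. Of the 9 genes, Gpr183 alone rose more than 2-fold on stimulation, with vehicle and with compound 10. It lies on the opposite strand within Ubac2, whose own level was 1.66 higher on the log2 scale (adjusted p = 5.18e-05) with compound 10 in stimulated cells. None of the 4 genes listed for oxysterol ligand synthesis passed the filter, and Ch25h, the enzyme that starts it, had 0 to 9 estimated counts per library.

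Txnip (chromosome 3, 96557957 to 96561883, plus strand) encodes an alpha-arrestin that binds thioredoxin and limits glucose uptake. At rest it was 191 and 229 CPM with vehicle and 214 and 128 CPM with compound 10. Stimulated cells had 17.5 and 18.1 CPM with vehicle and 49.8, 24.7 and 41.6 CPM with the compound. The unstimulated groups overlapped, and the stimulated ones did not. Stimulation left 8.47% of the resting level with vehicle (log2 change -3.56, SE 0.35, adjusted p = 3.00e-05) and 22.7% with compound 10 (log2 change -2.14, SE 0.28, adjusted p = 0.00035). In stimulated cells Txnip was 2.17-fold higher with compound 10 (log2 change 1.12, SE 0.30, adjusted p = 0.0203). This was lost without stimulated vehicle replicate 1 (adjusted p = 0.124) or 2 (0.117), or without stimulated compound 10 replicate 1 (0.0558) or 3 (0.0586), and on TPM (0.0908 and 0.0749). At rest the log2 change was -0.30 (95% interval -0.98 to 0.38), and the difference between the compound's effects, 1.42 (SE 0.43), had an adjusted p of 0.147; it passed with DESeq2 (0.0297), without a filter (0.00287) and without stimulated compound 10 replicate 2 (0.0367). The antisense gene Gm15441, which spans Txnip, averaged 5.43 TPM with vehicle and 5.04 TPM with compound 10 at rest, and 0.504 and 0.514 TPM after stimulation. Of its 6 quantified transcripts, Txnip-202 and Txnip-201 took 51.5% and 48.4% of the gene's TPM in unstimulated vehicle cells, a split that is uncertain because they share most of their sequence.

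Tsc22d3 (chromosome X, 140539528 to 140600659, minus strand) encodes GILZ, a leucine zipper protein that glucocorticoids and FOXO factors induce and that binds AP-1 and NF-κB subunits. It was 207 and 194 CPM in unstimulated vehicle and 222 and 192 CPM in unstimulated compound 10 libraries. After stimulation it was 21.1 and 20.1 CPM with vehicle and 86.6, 94.4 and 68.9 CPM with compound 10. The unstimulated groups overlapped, and each stimulated compound 10 library was more than 3 times the higher vehicle library. Stimulation left 10.3% of the resting level with vehicle (log2 change -3.28, SE 0.21, adjusted p = 9.25e-07) and 40.2% with compound 10 (log2 change -1.32, SE 0.17, adjusted p = 0.000222). Compound 10 raised Tsc22d3 4.05-fold in stimulated cells (log2 change 2.02, SE 0.19, adjusted p = 5.04e-05) and gave 0.05 (95% interval -0.37 to 0.46, adjusted p = 0.919) at rest. The difference of these effects was 1.97 (SE 0.27, 95% interval 1.39 to 2.55, adjusted p = 0.00567). It was lost without the 2 libraries richest in ribosomal RNA (adjusted p = 0.0866) and on TPM (0.256 and 0.295). Of 6 quantified transcripts, Tsc22d3-201 held 96.2% of the gene's TPM in unstimulated vehicle and 96.3% in stimulated compound 10 cells.

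**Figure D3:**
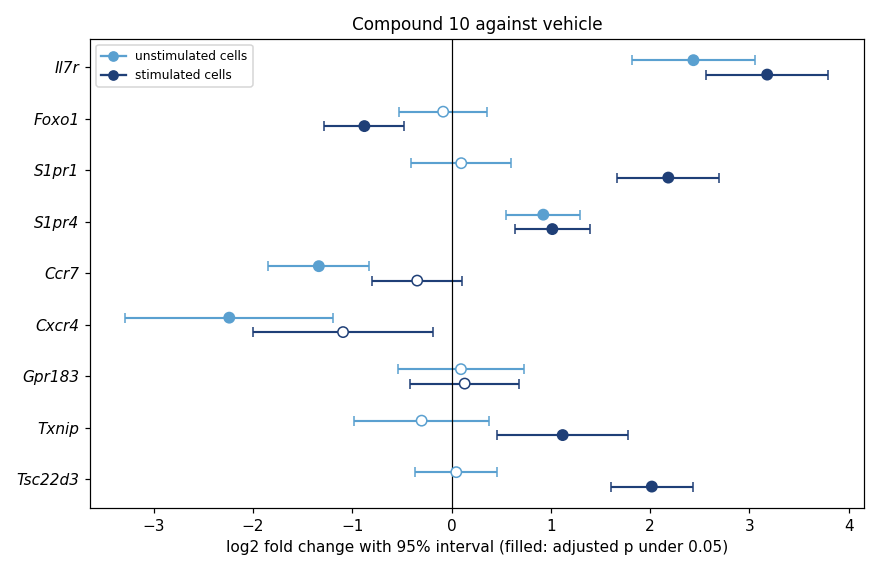
Log2 change with compound 10 against vehicle for each gene, at rest and after stimulation, with 95% intervals; filled points have an adjusted p under 0.05. Il7r was higher in both states (2.44 and 3.18), S1pr1 and Tsc22d3 were higher after stimulation (2.18 and 2.02) with intervals that include 0 at rest, and Ccr7 (-1.34) and Cxcr4 (-2.24) were lower at rest.

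Set side by side per unit of transcript length, the 9 genes changed their order with the groups. In unstimulated vehicle cells Ccr7 led with 431 TPM, followed by Tsc22d3 with 113, Txnip with 79.2, S1pr1 with 63.8 and S1pr4 with 33.3 TPM. Foxo1 at 25.5, Cxcr4 at 16.3, Il7r at 10.9 and Gpr183 at 4.8 TPM were lower. After stimulation with vehicle, Ccr7 at 117 and Gpr183 at 56.8 TPM were highest and S1pr1 at 3.51 and S1pr4 at 2.21 TPM lowest. In stimulated cells with compound 10, Il7r at 36.8 and Tsc22d3 at 36.6 TPM came next after Ccr7 at 87.8 and Gpr183 at 59.2 TPM.

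The genes whose log2 CPM followed each of the 9 most closely were sought over the 9 libraries. The pool was 4686 well expressed genes (4687 for Cxcr4), without predicted genes and pseudogenes. Il7r was followed by Irak1 (Pearson r = 0.989), Selenop and Rassf3, and Foxo1 by Wdr36 (r = 0.961), Nup62 and Cars. S1pr1 was followed by Sike1 (r = 0.990), Mgrn1 and Tsc22d3 (r = 0.985), and Tsc22d3 by Vps37b (r = 0.992), S1pr1 and Sike1. S1pr1 and Tsc22d3 were thus each among the other's 3 closest. S1pr4 was followed by Rnf145 (r = 0.993), Txnip by Dusp10 (r = 0.988), Ccr7 by Trim12a (r = 0.984), Cxcr4 by Ahcy (r = 0.957) and Gpr183 by Gimap5 (r = 0.995). Tnf, a cytokine gene of activated T cells, was also among the closest to Gpr183 (r = 0.993). These values describe 9 libraries in 4 groups, and the points of a group share their treatment.

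Beyond the receptor itself, genes of the interleukin 7 pathway moved in both directions. In stimulated cells 3 of 17 tested were higher with compound 10 and 3 lower, with a median log2 change of 0.19 beside 0.00 over all genes. Stat5b, which carries the signal to the nucleus, was 1.04 higher on the log2 scale (SE 0.21) and the survival gene Bcl2 1.06 higher (SE 0.22). The kinase gene Jak1 was lower (-0.87, SE 0.18), as was Cish, a feedback inhibitor of STAT5 signalling (-1.28, SE 0.30). At rest 1 was higher, Socs3, an inhibitor of cytokine receptor signalling (0.81, SE 0.19), and 2 were lower, among them Socs1, an inhibitor of JAK kinases (-1.71, SE 0.24). The compound's effect after stimulation minus that at rest was -1.37 for Socs3 (SE 0.25, adjusted p = 0.026) and 1.67 for Bcl2 (SE 0.32, adjusted p = 0.0321). The partner chain Il2rg had log2 changes of 0.67 (SE 0.32) at rest and 0.40 (SE 0.29) after stimulation, neither past the threshold.

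The list of FOXO factors and the PI3K and AKT pathway also holds Foxp1 and Foxp4, which are not FOXO genes. Of its 19 tested genes, 3 were higher and 1 lower with compound 10 after stimulation. This was near the 23% of all genes called in either direction. At rest 3 were higher, Foxp1 among them, and 0 lower, beside 4.44% of all genes called higher. Pik3ip1, an inhibitor of PI3K, was higher in both states (log2 changes 1.88, SE 0.22, and 1.25, SE 0.23). The phosphoinositide phosphatase gene Inpp4b was 1.26 (SE 0.18) and Pik3r5 1.85 (SE 0.34) higher after stimulation, and Rictor, a component of mTORC2, was lower (-0.92, SE 0.23). The median log2 change in stimulated cells was 0.30. Of 17 other FOXO target genes, 6 were higher and 2 lower after stimulation (median 0.17) and 1 was higher at rest. Trib2 (1.56, SE 0.18), the sestrin gene Sesn1 (1.33, SE 0.18) and Bcl6 (1.16, SE 0.20) were among those higher. Klf2, the factor that drives S1pr1, had a log2 change with compound 10 of -0.16 (SE 0.26, adjusted p = 0.709) after stimulation. The part of KLF2 in the level of S1pr1 was not tested.

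In the S1P list, 2 of 9 tested genes were called with compound 10 after stimulation, near the 23% of all genes. The receptor gene S1pr2 was higher (1.49, SE 0.35) and the S1P-making kinase gene Sphk2 lower (-1.48, SE 0.38). Cd69, whose protein removes S1PR1 from the cell surface, rose on stimulation with vehicle (4.06, SE 0.28) and with compound 10 (4.97, SE 0.28). Its log2 change with compound 10 in stimulated cells was 0.50 (SE 0.23, adjusted p = 0.143). Of 19 other homing receptors and integrins, 4 were higher and 0 lower after stimulation (median 0.31), beside 23% of all genes called and 11.7% called higher. Among those higher were Cxcr5 (2.48, SE 0.53), Cxcr6 (0.84, SE 0.22) and Itgb7 (0.80, SE 0.23). At rest 1, Itgb7, was higher (1.06, SE 0.25).

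Among genes that carry or end signals from chemoattractant receptors, 11 of 22 tested were called in stimulated cells, against 23% of all genes. FOXO target genes were close, with 8 of 17, as were the natural killer markers, with 4 of 8. Of the CD4 T cell markers, 8 of 15 were called. The lists were chosen with earlier results of these data known. Of the 22, 10 were higher with compound 10 and 1 lower, with a median log2 change of 0.64, and at rest 4 were higher and 2 lower. The receptor kinase gene Grk6 was higher after stimulation (2.71, SE 0.20) and at rest (1.99, SE 0.20). Rasgrp2, which activates RAP1 and integrins, was higher as well (2.05, SE 0.17, and 1.21, SE 0.17). The beta-arrestin gene Arrb2 (1.71, SE 0.24) and the small GTPase gene Rac2 (1.76, SE 0.25) were higher in stimulated cells. The list holds genes through which CCR7, S1PR1 and CXCR4 act and are switched off. Those named here were all higher, and the 1 that was lower after stimulation is not named.

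Around Txnip, 2 of 14 tested genes were higher and 2 lower with compound 10 in stimulated cells (median -0.22), and 2 were higher and 0 lower at rest. Its paralogue Arrdc2 was higher (1.29, SE 0.28), as was the hexokinase gene Hk2 (1.07, SE 0.30), whereas Hk1 (-1.06, SE 0.20) and the glucose transporter gene Slc2a1 (-0.72, SE 0.22) were lower. Around Tsc22d3, 4 of 14 tested were higher and 2 lower after stimulation (median 0.19), and 4 were higher and 0 lower at rest. Tsc22d1 was higher in both states (2.46, SE 0.26, at rest and 2.05, SE 0.24), while Tsc22d2 was lower after stimulation (-1.37, SE 0.24) and Tsc22d4 higher (0.79, SE 0.20). Ddit4, an mTORC1 inhibitor that glucocorticoids and stress induce, was also higher in both states (1.03, SE 0.23, at rest and 1.72, SE 0.21). Nr3c1, the glucocorticoid receptor gene, had a log2 change of -0.43 (SE 0.28, adjusted p = 0.324) in stimulated cells.

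Of 24 genes of naive and quiescent T cells, 5 were higher and 1 lower with compound 10 after stimulation (median 0.23), and 3 were higher and 1 lower at rest. Dgka, which removes the diacylglycerol that PMA mimics, was 2.23 higher (SE 0.23), the antiproliferative gene Btg2 1.74 higher (SE 0.19) and Igfbp4 1.38 higher (SE 0.20). Slfn2, a gene needed for T cell quiescence, was lower in both states (-1.88, SE 0.22, at rest and -1.51, SE 0.19). Beside the counts of all these lists stand 11.7% of all genes called higher and 11.4% called lower in stimulated cells, and 4.44% and 2.9% at rest. In stimulated cells the lists of FOXO factors with PI3K and AKT, of S1P, of other homing receptors and of naive and quiescent cells were near the 23% of all genes called. Calls there were in both directions in 8 of the lists, although 10 to 1 for chemoattractant receptor signalling. In the list of other homing receptors and integrins all 4 were higher.

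**Figure D4:**
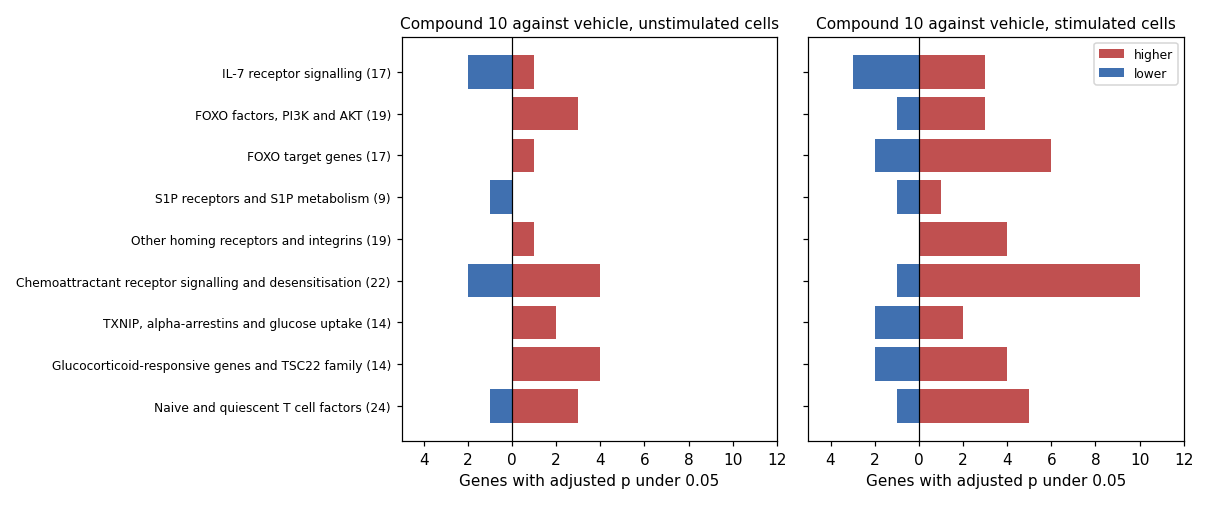
Number of genes of each related list that were higher (red, right) or lower (blue, left) with compound 10 at an adjusted p under 0.05, with the number tested in brackets. In stimulated cells the list on chemoattractant receptor signalling had 10 of 22 higher and 1 lower, and the list on interleukin 7 receptor signalling had 3 higher and 3 lower of 17.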

How the data were processed

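RNA of 9 libraries was extracted with Qiagen kits and sequenced after Clontech SMART-seq, per the labels' protocols; that chemistry does not mark strand. Per the submitters' processing notes, cutadapt, kallisto and the build mm10 were used; the sources used here did not give their versions or kallisto's annotation. The deposited estimated counts per transcript carry no normalization between libraries, per the file headers and values. The deposited TPM values, scaled by effective length by kallisto, came from the same tables. Of 109617 transcripts, 108214 matched GENCODE M21 without the version number; unmatched ones held 0.542% to 0.829% of counts.

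Estimated counts were summed per gene and rounded. Genes passing filterByExpr (14040) were tested with edgeR 4.0.16 (TMM, robust quasi-likelihood test, all 4 groups in one fit, common biological coefficient of variation 0.244, R 4.3.3), with Benjamini-Hochberg adjustment over all of them and a threshold of 0.05. An SE is the log2 change over the square root of F, and the 95% interval uses the moderated degrees of freedom. CPM are TMM-scaled. Alternatives used limma 3.58.1 on log2(TPM + 1) and log2(TPM + 0.1), DESeq2 1.42.0, other scalings and filters, the deposited effective lengths as an offset, a replicate block and leaving out libraries. On simulated counts of 14040 genes with 200 changed, the test recovered 28.3%, 69% and 84.7% of 2-, 4- and 8-fold changes for compound 10 in stimulated cells. At rest it recovered 18.3%, 64.3% and 80.2%, with 6.51% and 8.35% of calls false in the 2 states. In the data 3234 and 1030 genes were called, more than the 200 changed there, so these shares need not hold for the reported tests.

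The 9 genes, the 10 related lists and the marker lists were chosen with earlier results of these data known. From a related list, at most 4 genes with the smallest p among those passing were named for compound 10 in stimulated cells. At most 2 were named for each other comparison. Klf2, Nr3c1, Il2rg, Cd69 with compound 10 and Ch25h were named after their values were seen. The values of 1 gene of a related list are not reported here. The closest followers were ranked by Pearson's r of log2 CPM (prior count 2) among genes with a mean of at least 4. Predicted genes, pseudogenes and T cell receptor or immunoglobulin segments were left out.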

Additional observations from a re-analysis of the deposited data

Results flagged for a closer look

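The effect of compound 10 differed between stimulated and resting cells for 2 of the 9 genes, by the interaction term of the edgeR fit. For Tsc22d3 the effect in stimulated cells was 1.97 higher on the log2 scale than at rest (adjusted p = 0.00567). For S1pr1 it was 2.09 higher (adjusted p = 0.0139). Both are effects that were near 0 at rest, with log2 changes of 0.05 and 0.10. Of all genes tested, 1.03% passed this test. Both calls were lost on TPM (adjusted p = 0.256 and 0.295 for Tsc22d3, 0.397 and 0.366 for S1pr1). They were also lost when identifiers were matched with their version (0.264 and 0.102), and that of S1pr1 with a replicate block (0.0665). Further losses are given with each gene above.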

How the results depend on the processing

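Of 45 results (9 genes in 5 tests), 25 passed the threshold; 13 of these held in all alternatives that could be run, 12 were lost in at least 1 of the 23 alternatives, and 0 turned direction. Both effects of compound 10 on Il7r held in each that could be run; matching with versions leaves Il7r, S1pr4 and Gpr183 out. Precision limits small changes, whatever its source (counts or the 2 or 3 libraries per group): the median SE over all genes was 0.299 on the log2 scale for compound 10 in stimulated cells, 0.326 at rest and 0.441 for the difference between them.

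The numbers of all genes and of the 9 genes called, or the share of higher calls, moved as follows, and the cause was not tested. Fewer transcripts entered when identifiers were matched with their version, and fewer libraries where some were left out. Stimulation with vehicle, with 3943 genes called, gave 2422 on log2(TPM + 1), 2320 on log2(TPM + 0.1), 1217 when identifiers were matched with their version (63964 transcripts, 4 of the 9 genes called) and 1596 without the 2 libraries richest in ribosomal RNA. Higher calls were 51.0% of the 3943, but 38.2% and 39.1% on TPM, 67.9% with versions and 65.6% without those libraries, and the median over all genes on log2(TPM + 1) was -0.17. For compound 10 at rest, with 1030 called, the counts were 1569 without a filter, 168 and 109 on TPM (2 and 1 of the 9), 56 with versions (0 of the 9) and 294 without the 2 libraries (2 of the 9). For compound 10 in stimulated cells, with 3234 called, they were 975 and 1042 on TPM (3 of the 9 in each), 576 with versions (1 of the 9) and 1827 without the 2 libraries. Stimulation under compound 10, with 3054 called and 50.5% higher, gave 2078 on log2(TPM + 1) and 1946 on log2(TPM + 0.1), with 26.9% and 28.3% higher, and 822 with versions (2 of the 9, 60.6% higher). The difference between the compound's effects, with 144 called and 41% higher, gave 512 without a filter, 450 with DESeq2 (4 of the 9), 16 and 7 on TPM (0 of the 9, 6.25% and 28.6% higher), 13 without the 2 libraries (0 of the 9, 30.8% higher) and 0 with versions (0 of the 9); upper-quartile scaling gave 147 with 55.1% higher.

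Leaving out 1 library at a time gave 2425 to 4347 genes for stimulation with vehicle, 174 to 1457 for compound 10 at rest (1 to 4 of the 9), 1973 to 3167 for it in stimulated cells, 1506 to 3085 for stimulation under compound 10 and 29 to 264 for the difference of effects (1 to 3 of the 9).

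Samples share only a number across groups. A replicate block changed the calls of the difference of effects to 43 genes and 1 of the 9 (Tsc22d3). It lost the S1pr1 difference of effects (adjusted p = 0.0665), Cxcr4 at rest (0.0636) and Txnip in stimulated cells (0.0579), and gave -0.10 for Gpr183 with compound 10 in stimulated cells and -0.22 for its difference of effects. Deviations of same-numbered libraries correlated at 0.33 between unstimulated and stimulated vehicle, 0.23 and 0.18 between the compound 10 groups, 0.18 and 0.092 between the stimulated groups and -0.10 between the unstimulated groups, with at most 2 pairs in each. With the numbers of the unstimulated groups crossed, an alternative chosen after seeing the data, 580 genes were called at rest.

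Signs turned only among values that had not passed. Tsc22d3 at rest was -2.12 with versions, S1pr1 at rest -0.17 without the 2 libraries, and Cxcr4 on stimulation under compound 10 -0.012 and -0.026 on TPM. For the difference of effects, Gpr183 was -0.015 without a filter and -0.055 and -0.076 on TPM, and S1pr4 -0.22 and -0.039 on TPM. Leaving out 1 library gave at rest -0.25 to 0.064 for Foxo1, -0.16 to 0.42 for S1pr1, -0.12 to 0.35 for Gpr183, -0.72 to 0.027 for Txnip and -0.063 to 0.15 for Tsc22d3; in stimulated cells -0.13 to 0.47 for Gpr183; -0.26 to 0.05 for Foxo1 on stimulation under compound 10; and -0.23 to 0.37 for the Gpr183 difference of effects. Cxcr4 in stimulated cells passed without a filter (adjusted p = 0.000276).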
